A study of Mus musculus with 12 samples.

Results

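The 10 genes Atr, Atrip, Rad9a, Rad9b, Rad1, Hus1, Topbp1, Mdc1, Rnf8 and Rnf168 encode the ATR kinase module, the 9-1-1 clamp and the chromatin factors of DNA damage signalling. They were taken by gene name from the 55450 genes of the deposited feature table, and all 10 were found and passed the filter on low counts. The libraries were single-cell RNA libraries of testis germ cells from C57BL/6 mice, hand-picked after enzymatic dissociation. There were 4 groups of 3 libraries: Zfp541 knockout (KO) and wild type (WT) at 360 h after retinoic acid, labelled late pachytene, and KO and WT at 260 h, labelled early pachytene. Mice of all 4 groups had been fed WIN 18,446, an inhibitor of retinoic acid synthesis, from 2 days after birth for 7 days and had then received retinoic acid, which lets spermatogonia enter meiosis together. ZFP541 is a zinc finger protein of spermatocytes. The labels give neither the knockout allele nor the animals behind each library. The p-values therefore reflect how much libraries of 1 group differed, which may be technical variation.

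ATR, bound to its partner ATRIP, is the kinase called to single-stranded DNA coated with RPA. The clamp of RAD9, RAD1 and HUS1 is loaded beside it and brings in TOPBP1, which switches the kinase on. In pachytene spermatocytes this machinery acts on the unpaired axes of the X and Y chromosomes, where ATR phosphorylates histone H2AX, MDC1 spreads that mark over the chromatin, and the ubiquitin ligases RNF8 and RNF168 mark the surrounding histones. The chromosomes so marked form the sex body, whose genes are silenced.

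The authors kept 929 of 1152 barcodes as cells, 50 to 94 per library, and the same 96 well barcodes served every library. A library held 3601518 to 27202665 unique molecular identifiers (UMIs, which mark single cDNA molecules) assigned to genes. The authors' clusters comprised 1 pre-meiotic cluster, 2 early pachytene clusters (2 and 3) and 2 late pachytene clusters (4 and 5). At 360 h nearly all KO cells lay in cluster 4 and nearly all WT cells in cluster 5, so that genotype and cluster cannot be told apart there. At 260 h WT library 3 lay in cluster 3 with the 3 KO libraries, whereas WT libraries 1 and 2 lay in cluster 2. Pre-meiotic cells made up 0% to 11.3% of cells in KO and 1.06% to 2.35% in WT libraries at 360 h, and 28% to 36.0% in KO and 16.2% to 46.2% in WT libraries at 260 h. Zfp541 itself had 130 to 156 CPM (UMIs per 1e6 of the scaled library) in KO and 170 to 200 CPM in WT libraries at 360 h, and 75.8 to 123 CPM in KO and 38.1 to 129 CPM in WT libraries at 260 h. The groups overlapped at 260 h, neither difference was called, and because cDNA was captured at its 3′ end these reads do not check a deletion elsewhere in the gene.

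The labelled stage was checked against marker genes. Of 7 early prophase markers, 5 were higher in every KO than in every WT library at 360 h, and the summed level was 1876 to 2403 CPM in KO and 684 to 905 CPM in WT. Of 8 pachytene markers, 4 (Pgk2, Ccna1, Ovol2 and Adam3) were lower in every KO library at 360 h, while the summed level overlapped, at 4453 to 5388 CPM in KO and 3979 to 6063 CPM in WT. At 260 h the pachytene markers summed to 1605 to 1990 CPM in KO and 2381 to 4542 CPM in WT libraries, without overlap. Of these markers, 2 (Pgk2 and Ldhc) were lower in every KO library. The early prophase sums overlapped at 260 h, at 1611 to 2633 CPM in KO and 1652 to 2435 CPM in WT. There the 5 macrophage markers summed to 1.63 to 9.996 CPM in KO libraries, and to 49.6 and 74.5 CPM in WT libraries 1 and 2 but 4.81 CPM in WT library 3. The 5 Leydig markers summed to 15.1 to 22.2 CPM in KO libraries, and to 107 and 64.6 CPM in WT libraries 1 and 2 but 21.4 CPM in WT library 3. No marker of these 4 lists except Insl3, a Leydig marker, was at 0 in every library of a group at 260 h.

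At 360 h the Leydig markers summed to 18.6 to 22.3 CPM in KO and 6.62 to 13.5 CPM in WT libraries, with 3 of the 5 markers higher in every KO library. Most of these sums was Star, at 16.1 to 18.9 CPM in KO and 6.49 to 12.8 CPM in WT libraries, and Insl3 was at 0 in all 6. The macrophage markers summed to 3.46 to 6.27 CPM in KO and 1.73 to 3.44 CPM in WT libraries, with 1 of the 5 higher in every KO library and C1qb at 0 in all WT libraries. The 8 spermatogonia markers summed to 169 to 666 CPM in KO and 53.5 to 189 CPM in WT libraries, which overlapped, as did the sums of the Sertoli and of the peritubular and endothelial markers. The KO and WT libraries at 360 h also stood apart in mitochondrial UMIs (1.95% to 2.47% in KO and 1.04% to 1.54% in WT), in spike-in UMIs (7.07% to 7.50% in KO and 3.10% to 5.67% in WT) and in gene UMIs (8640883 to 10689318 in KO and 13092560 to 27202665 in WT). The part of these differences in the results below was not tested.

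The promoters of Rnf168, Atrip and Mdc1 are shown because these 3 genes were called both between genotypes at 360 h and between times in WT. Each runs from 250 bases before to 50 bases after the start of the gene on its own strand (RefSeq, GRCm38.p6, the same assembly as mm10), at chr16:32277211-32277510 on the plus strand for Rnf168, chr9:109074075-109074374 on the minus strand for Atrip and chr17:35841248-35841547 on the plus strand for Mdc1. Capitals mark an E2F core (GCGGGAA or, on the other strand, TTCCCGC) or a CCAAT box (CCAAT or ATTGG).
Rnf168: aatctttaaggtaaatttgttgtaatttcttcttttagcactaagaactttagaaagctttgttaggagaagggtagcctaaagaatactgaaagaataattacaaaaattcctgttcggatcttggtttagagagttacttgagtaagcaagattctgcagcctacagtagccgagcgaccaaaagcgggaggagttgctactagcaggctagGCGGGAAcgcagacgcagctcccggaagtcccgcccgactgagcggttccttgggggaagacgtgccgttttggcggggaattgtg
Atrip: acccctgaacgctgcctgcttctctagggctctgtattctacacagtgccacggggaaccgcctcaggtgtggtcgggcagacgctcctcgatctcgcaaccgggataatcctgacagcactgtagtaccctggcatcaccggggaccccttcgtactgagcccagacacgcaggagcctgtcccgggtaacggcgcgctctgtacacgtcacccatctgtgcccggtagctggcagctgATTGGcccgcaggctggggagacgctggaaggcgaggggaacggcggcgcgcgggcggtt
Mdc1: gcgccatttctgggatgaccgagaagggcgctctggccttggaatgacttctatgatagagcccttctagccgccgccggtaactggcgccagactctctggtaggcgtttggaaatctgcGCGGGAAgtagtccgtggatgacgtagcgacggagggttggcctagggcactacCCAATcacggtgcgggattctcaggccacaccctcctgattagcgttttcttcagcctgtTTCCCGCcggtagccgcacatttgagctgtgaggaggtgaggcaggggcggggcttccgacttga
Rnf168 held the E2F core alone, Atrip the CCAAT box alone and Mdc1 both. Of the 9 genes with a promoter in the table, 3 (Mdc1, Rnf8 and Rnf168) held the E2F core, which occurred in 4.60% of 32851 promoters. A CCAAT box occurred in 4 of the 9 (Atrip, Rad9b, Mdc1 and Rnf8) and in 37.4% of all. The palindromic letters TGCGCA, a core of NRF1 sites, were found only in Rnf8 among the 9 and in 7.76% of all, and the cyclic AMP response element TGACGTCA in none of the 9 and in 1.79% of all. A short MYB core (AACNG or, on the other strand, CNGTT) occurred in 8 of the 9 and in 80.3% of all, and is not marked. These matches are descriptions of letters, not sites.

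At 360 h, KO germ cells had 4.14-fold lower Rnf168 and 3.48-fold higher Atrip levels than WT germ cells, while Atr itself showed no called difference. Atrip, Rad9b and Mdc1 were higher, Rnf168 and Rad9a lower, and the other 5 genes were not called. Calls are from edgeR's quasi-likelihood test at a Benjamini-Hochberg adjusted p under 0.05 over 20279 genes, of which 22.5% were called in this comparison. The libraries of the groups did not overlap for 6 of the 10 genes, beside 44.2% of all genes tested. The median log2 fold change of the 10 genes was 0.20, beside 0.03 for all genes tested. When the libraries were scaled by their spike-in UMIs instead, the median of all genes shifted by -0.52, and only Rnf168 and Rad9a were called. The 5 calls became 3 without WT 260 h library 2, KO 260 h library 1 or WT 360 h library 1, and 2 without WT 360 h library 2 or any 1 of the 3 KO 360 h libraries. Without pre-meiotic cells all 5 were called, and Topbp1 as well, beside 1940 called higher and 2616 called lower of all 18901 genes tested. With cells thinned to equal depth Rad9a was not called (-2.27, adjusted p = 0.0797), and Topbp1 was. The early prophase and Leydig marker sums, the mitochondrial share and the spike-in share were all higher in every KO library of this comparison.

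**Figure D1:**
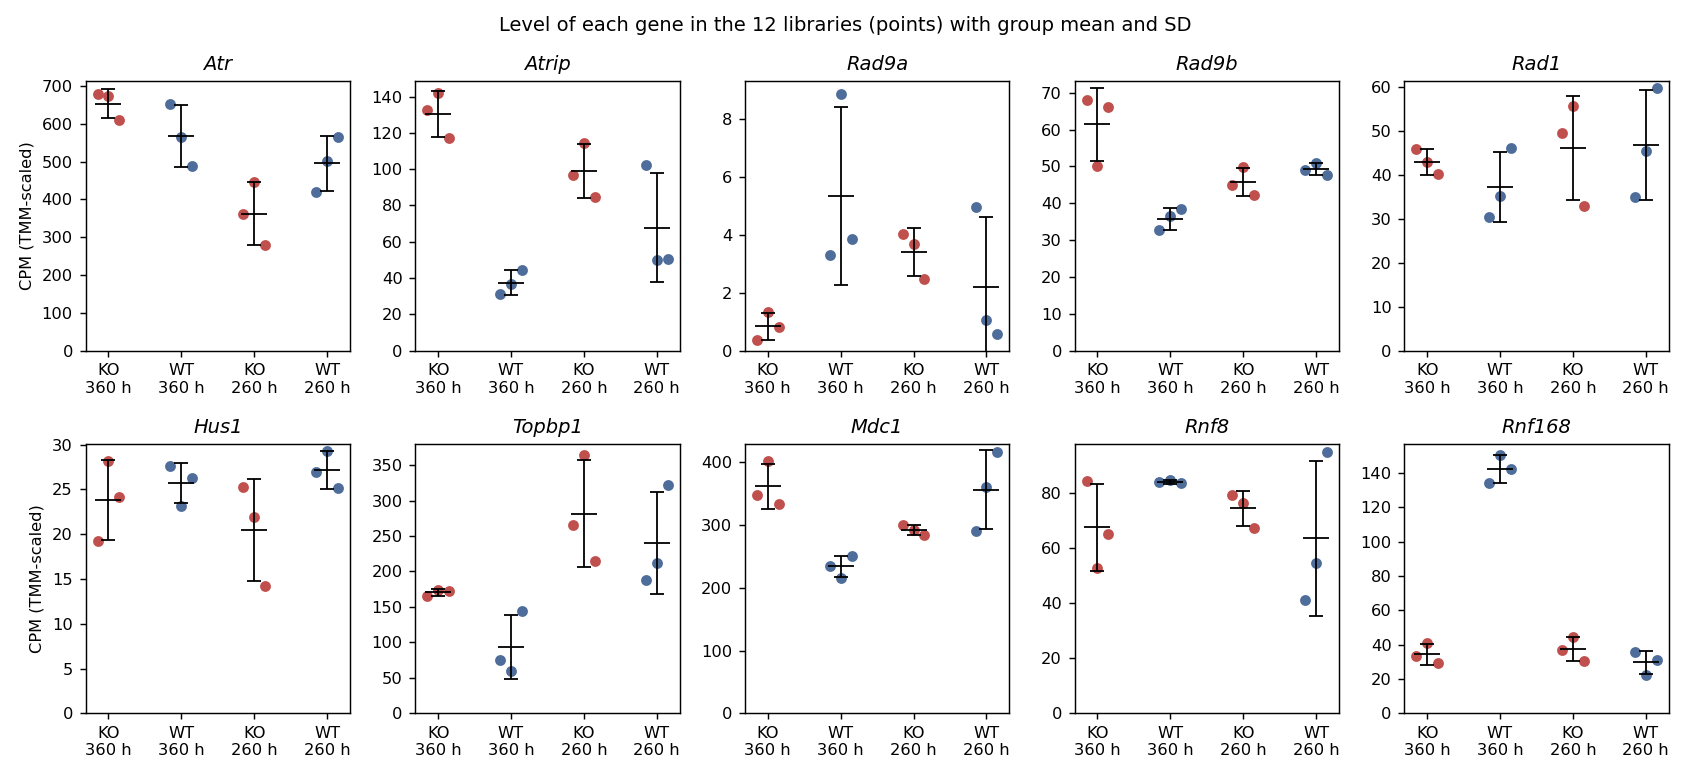
Levels of the 10 genes in CPM (y axes from 0), with 1 point per library and bars for the mean and SD of the 3 libraries of each group (KO red, WT blue). The 3 WT libraries at 360 h stand apart for Rnf168, at 134 to 151 CPM against at most 44.6 CPM in the other 9 libraries.

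Rnf168, the ligase that extends ubiquitin marks on H2A-type histones after RNF8 has acted (ENSMUSG00000014074.17, mm10 chromosome 16, 32277459 to 32301434, plus strand), had 33.3, 40.8 and 29.1 CPM in the KO libraries at 360 h, against 134, 151 and 142 CPM in the WT libraries. Every KO library lay far below every WT library, and the spread within each group was small beside the gap. The level was 4.14-fold lower in KO, a log2 fold change of -2.05 ± 0.27 (SE; edgeR adjusted p = 8.21e-05). It was called in all 20 alternatives run for this comparison, with log2 fold changes of -2.56 to -1.89. The median cell had 28, 38.1 and 24.2 UMIs of Rnf168 per 1e6 in the KO libraries, against 106, 102 and 115 in the WT libraries. The lower quartile of cells in each WT library, 74.2 to 92.7 per 1e6, lay above the upper quartile in each KO library, 40.9 to 55.5 per 1e6. Most cells of each KO library thus lay below most cells of each WT library.

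**Figure D2:**
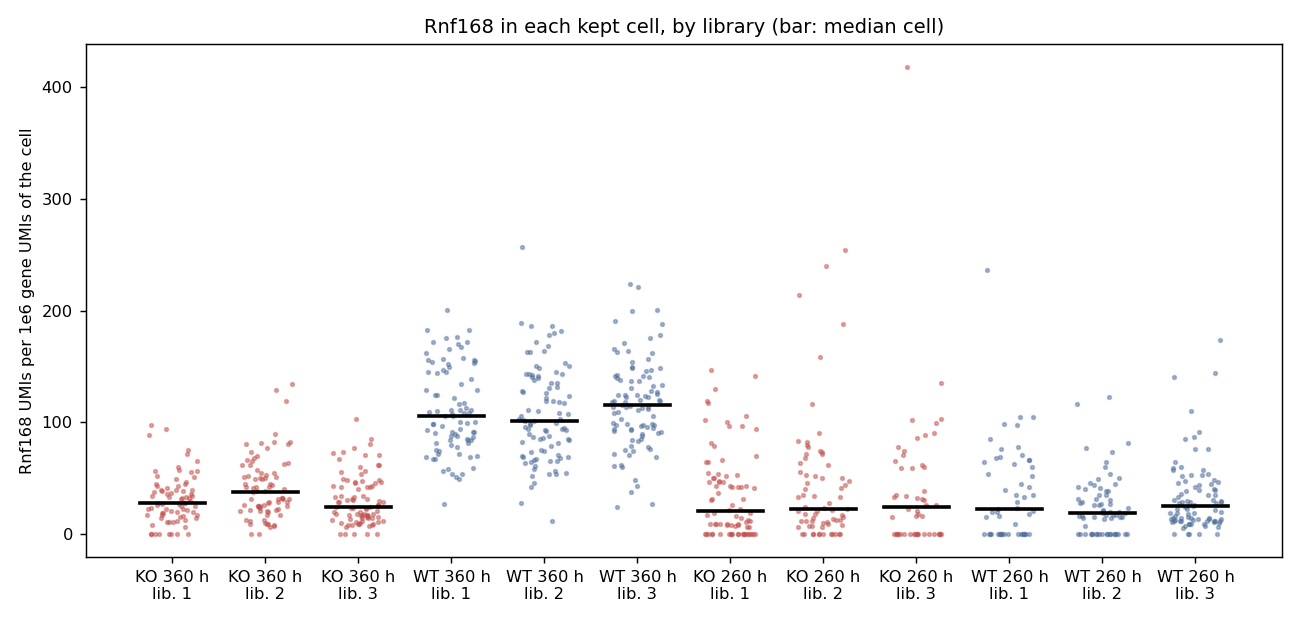
Rnf168 UMIs per 1e6 gene UMIs in each of the 929 kept cells (points), by library, with a bar at the median cell (KO red, WT blue). The bars of the 3 WT libraries at 360 h lie at 102 to 115 per 1e6, and those of the KO libraries at 360 h at 24.2 to 38.1.

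The kinase and its partner differed from each other. Atrip, which carries ATR to RPA-coated DNA (ENSMUSG00000025646.9, chromosome 9, 109057933 to 109074124, minus strand), had 132, 142 and 117 CPM in the KO libraries at 360 h, against 31.0, 36.8 and 44.7 CPM in the WT libraries. The groups did not overlap, and the lowest KO library was well above the highest WT library. The log2 fold change was 1.80 ± 0.30 (3.48-fold; edgeR adjusted p = 0.000577), and the call was lost only under spike-in scaling among 20 alternatives (1.22, adjusted p = 0.0671). Atr, the kinase (ENSMUSG00000032409.15, chromosome 9, 95857597 to 95951781, plus strand), had 678, 673 and 609 CPM in the KO libraries, against 652, 565 and 487 CPM in the WT libraries, and these overlapped. Its log2 fold change of 0.20 had a 95% interval of -0.26 to 0.66 (edgeR adjusted p = 0.577) and was -0.29 under spike-in scaling. Exons of Atrip share 1147 bases with Trex1 on the same strand, and exons of Atr share 726 and 462 bases with the antisense genes 1700065D16Rik and Gm16794, so that reads there could belong to either gene, since no source used here says whether counting was by strand.

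The genes of the 9-1-1 clamp did not move together, and those of its alternative RAD9 subunits went opposite ways. Rad9b, the testis-enriched paralog (ENSMUSG00000038569.13, chromosome 5, 122323223 to 122354233, minus strand), had 68.1, 50.1 and 66.0 CPM in the KO libraries at 360 h, against 32.6, 36.4 and 38.4 CPM in the WT libraries. Rad9a, the widely expressed subunit (ENSMUSG00000024824.7, chromosome 19, 4195196 to 4201662, minus strand), had only 3, 13 and 9 UMIs in the KO libraries (0.378, 1.33 and 0.816 CPM), against 36, 94 and 87 UMIs in the WT libraries (3.30, 8.87 and 3.85 CPM). Neither gene overlapped between the groups, with Rad9b higher and Rad9a lower in every KO library. The log2 fold change was 0.78 ± 0.24 for Rad9b (edgeR adjusted p = 0.0291) and -2.63 ± 0.82 for Rad9a (edgeR adjusted p = 0.0296). Rad9a supplied 0.552%, 2.59% and 1.22% of the UMIs of the pair in the KO libraries (exact 95% binomial intervals of 0.114% to 1.61%, 1.39% to 4.39% and 0.560% to 2.31%). In the WT libraries it supplied 9.18%, 19.6% and 9.11% (6.52% to 12.5%, 16.1% to 23.4% and 7.36% to 11.1%). These intervals cover counting error only, and those of KO and WT libraries did not overlap at 360 h. At 260 h the share was 8.22%, 6.89% and 5.53% in the KO libraries, against 9.21%, 2.05% and 1.20% in the WT libraries. There WT library 1 lay above all KO libraries and the other WT libraries below them.

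Neither clamp call was firm. The call of Rad9a was lost without WT 360 h library 2 (adjusted p = 0.118) and without KO 360 h library 1 (0.0869), library 2 (0.0514) or library 3 (0.111), with log2 fold changes of -3.17 to -2.14 over all libraries left out in turn. The call of Rad9b was lost without any 1 of 8 libraries (adjusted p of 0.0516 to 0.140) and was kept without WT 260 h library 1 or 3 or KO 260 h library 2 or 3. Under spike-in scaling Rad9b had a log2 fold change of 0.22 (adjusted p = 0.783). Exons of Rad9a share 225 bases with Ppp1ca, and those of Rad9b share 1002 bases with Pptc7, on opposite strands. Rad1 (ENSMUSG00000022248.14, chromosome 15, 10486018 to 10499063, plus strand), the subunit common to all forms of the clamp, had 46.0, 42.9 and 40.2 CPM in the KO libraries at 360 h, against 30.5, 35.2 and 46.2 CPM in the WT libraries. Hus1 (ENSMUSG00000020413.11, chromosome 11, 8993137 to 9011191, minus strand), the remaining clamp subunit, had 19.3, 28.2 and 24.1 CPM in the KO libraries, against 27.6, 23.2 and 26.3 CPM in the WT libraries. Both overlapped and neither was called, with 95% intervals of the log2 fold change of -0.37 to 0.78 for Rad1 and -0.71 to 0.50 for Hus1.

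Topbp1, the activator of ATR (ENSMUSG00000032555.10, chromosome 9, 103305215 to 103350428, plus strand), had 165, 174 and 173 CPM in the KO libraries at 360 h, against 75.3, 60.4 and 145 CPM in the WT libraries. The groups did not overlap, but WT library 3 lay close to the KO libraries. The log2 fold change of 0.87 ± 0.33 was not called (edgeR adjusted p = 0.0698). It was called without WT 360 h library 3 (1.32 ± 0.33, adjusted p = 0.00891), without pre-meiotic cells (0.97, adjusted p = 0.0377), with cells thinned to equal depth (0.94, adjusted p = 0.0342) and in a fit of these 2 groups alone (1.01, adjusted p = 0.0421), and it was 0.17 under spike-in scaling.

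Mdc1, the reader that spreads the H2AX mark (ENSMUSG00000061607.15, chromosome 17, 35841515 to 35859670, plus strand), had 348, 402 and 334 CPM in the KO libraries at 360 h, against 235, 216 and 250.0 CPM in the WT libraries. The groups did not overlap. The log2 fold change of 0.63 ± 0.22 was just under the threshold (edgeR adjusted p = 0.0496), and the call was lost without any 1 of 10 libraries (adjusted p of 0.0571 to 0.253) and kept without WT 260 h library 1 or KO 260 h library 3. Under spike-in scaling it was 0.08 (adjusted p = 0.925). Rnf8, the ligase that acts before RNF168 (ENSMUSG00000090083.11, chromosome 17, 29614790 to 29644991, plus strand), had 84.5, 53.0 and 65.4 CPM in the KO libraries, against 84.0, 84.9 and 83.6 CPM in the WT libraries. KO library 1 lay among the WT libraries and the other KO libraries below them, and the log2 fold change of -0.32 (95% interval of -0.90 to 0.27) was not called (edgeR adjusted p = 0.480). Exons of Rnf8 share 1542 bases with Gm28043 on the same strand.

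**Figure D3:**
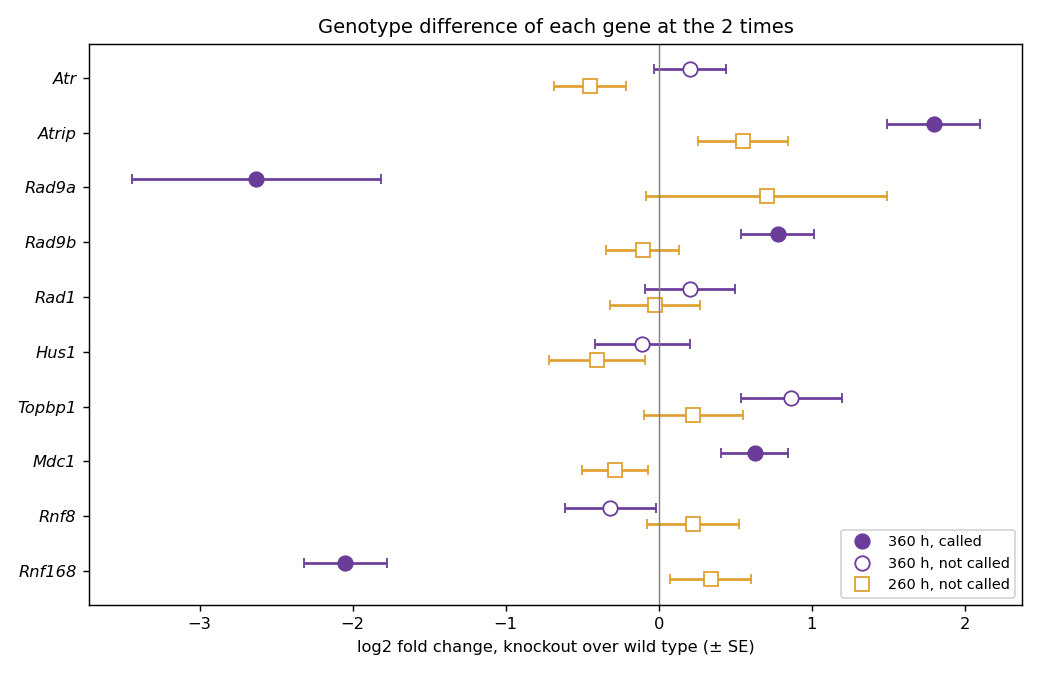
Log2 fold change of KO over WT (x axis, ± SE) for each of the 10 genes at 360 h (circles) and 260 h (squares), with filled symbols for an edgeR adjusted p under 0.05. At 360 h Rad9a and Rnf168 lie at -2.63 and -2.05 and Atrip at 1.80, whereas no gene is called at 260 h, where the values run from -0.45 to 0.70.

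At 260 h no gene of the 10 was called between the genotypes. Log2 fold changes ran from -0.45 for Atr to 0.70 for Rad9a, with edgeR adjusted p of 0.458 to 0.988, and 0 of the 10 had an unadjusted p under 0.05. DESeq2 called 0, with 1 unadjusted p under 0.05. Of all genes tested 1.89% were called, and 14.6% had groups that did not overlap, beside 0 of the 10 genes. Rnf168 had 37.2, 44.6 and 30.7 CPM in the KO libraries, against 35.7, 22.2 and 31.1 CPM in the WT libraries, so the low level of KO at 360 h was also that of both genotypes at 260 h. Atrip had 97.0, 115 and 84.8 CPM in the KO libraries, against 102, 50.2 and 50.5 CPM in the WT libraries. Of the WT libraries only library 1 reached the range of KO. It also had the highest share of pre-meiotic cells, 46.2%. In unscaled CPM, its summed Atrip level was 139 in pre-meiotic cells and 97.6 in cluster 2. In WT library 2 these were 49.8 and 59.4, and WT library 3 had 30.7 in pre-meiotic cells and 57.5 in cluster 3. The median cell of WT library 1 had 84.7 Atrip UMIs per 1e6 without pre-meiotic cells and 67.1 with them. Without them, that of WT libraries 2 and 3 had 49.0 and 56.2. The part of pre-meiotic cells in the level of library 1 was not tested. The 95% intervals of the log2 fold change were -0.18 to 0.86 for Rnf168 and -0.03 to 1.13 for Atrip.

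Between the times, Rnf168 rose in WT and Atrip, Topbp1 and Mdc1 fell, and in KO Atr was called, as higher at 360 h. In WT 4 of the 10 genes were called, beside 39.9% of all genes tested, and 5 had times that did not overlap, beside 50.6%. Rnf168 averaged 142 ± 8.31 CPM at 360 h and 29.7 ± 6.85 CPM at 260 h in WT (SD, n = 3 each), a log2 fold change of 2.26 ± 0.27 (edgeR adjusted p = 2.74e-05) that was called in all 21 alternatives. Topbp1 averaged 93.6 ± 45.2 CPM at 360 h and 241 ± 72.0 CPM at 260 h in WT, a log2 fold change of -1.36 ± 0.33 (edgeR adjusted p = 0.00445), lost only under spike-in scaling (-0.87, adjusted p = 0.247). In WT, Atrip at -0.85 ± 0.30 (edgeR adjusted p = 0.0331) and Mdc1 at -0.61 ± 0.22 (edgeR adjusted p = 0.0372) were nearer the threshold. The call of Atrip rested in part on WT 260 h library 1, which had 102 CPM against 50.2 and 50.5 CPM in the other 2, and without it the log2 fold change was -0.42 (adjusted p = 0.246). It was also lost without KO 260 h library 1, WT 360 h library 1 or 2, or any of the KO 360 h libraries (adjusted p of 0.0527 to 0.143). The call of Mdc1 was lost without any 1 of 10 libraries (adjusted p of 0.0559 to 0.188) and kept without WT 260 h library 1 or KO 260 h library 3. With spike-in scaling the median of all genes in WT shifted by 0.44 and only Rnf168 was called. The WT count was 2 without KO 260 h library 1, WT 360 h library 1 or 2, or any of the KO 360 h libraries.

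The RAD9 genes were not called between the times in WT, but both were called when pre-meiotic cells were left out. These cells were 1.06% to 2.35% of WT cells at 360 h and 16.2% to 46.2% at 260 h. Rad9a averaged 5.34 ± 3.07 CPM at 360 h and 2.21 ± 2.40 CPM at 260 h in WT, a log2 fold change of 1.34 ± 0.78 (edgeR adjusted p = 0.187). Without pre-meiotic cells it was 3.16 (adjusted p = 0.0181) and without WT 260 h library 1 it was 2.72 (adjusted p = 0.0203), both called. Rad9b averaged 35.8 ± 2.93 CPM at 360 h and 49.2 ± 1.67 CPM at 260 h in WT, a log2 fold change of -0.46 ± 0.24 (edgeR adjusted p = 0.140) that was called without pre-meiotic cells (-0.73, adjusted p = 0.0288). Without pre-meiotic cells 5 of the 10 genes were called in WT, beside 3732 called higher and 3015 called lower of all 18901 genes tested. The 5 were Rnf168 and Rad9a as higher and Topbp1, Mdc1 and Rad9b as lower at 360 h. Atrip was not called (-0.89, adjusted p = 0.0603). Rnf8 was called only without WT 260 h library 3 (0.81, adjusted p = 0.0478).

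In KO, 1 of the 10 genes was called between the times, beside 23.5% of all genes tested, and 6 had times that did not overlap, beside 46% of all. Atr had 678, 673 and 609 CPM at 360 h, against 361, 446 and 280 CPM at 260 h, with no overlap. The log2 fold change was 0.85 ± 0.24 (edgeR adjusted p = 0.0177). Without the pre-meiotic cells, which were 28% to 36.0% of KO cells at 260 h, it was 0.52 (adjusted p = 0.107), and without KO 260 h library 1 it was 0.94 (adjusted p = 0.0540). It was also lost under spike-in scaling (1.09, adjusted p = 0.0735) and with no filter on low counts (0.96, adjusted p = 0.0501). Topbp1 averaged 171 ± 4.90 CPM at 360 h and 282 ± 76.0 CPM at 260 h in KO, a log2 fold change of -0.72 ± 0.33 that was not called (edgeR adjusted p = 0.123). Without pre-meiotic cells Topbp1 was the 1 gene of the 10 called in KO (-0.97, adjusted p = 0.0398). Of all 18901 genes tested in that setting, 2511 were called higher and 1698 lower. In a fit of the KO groups alone Topbp1 was called beside Atr (-0.70, adjusted p = 0.0377). The change of Topbp1 between the times was not shown to differ between the genotypes (log2 difference of 0.64 ± 0.46, edgeR adjusted p = 0.469). Rnf168 had 33.3, 40.8 and 29.1 CPM at 360 h, against 37.2, 44.6 and 30.7 CPM at 260 h in KO. These overlapped, with a log2 fold change of -0.13 (95% interval of -0.64 to 0.39; 0.11 under spike-in scaling). The comparisons of KO with WT and of the times share libraries, so they are not separate lines of evidence.

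The difference between the genotype effects at 360 h and 260 h was tested directly and was called for Rnf168 alone of the 10 genes, beside 5.08% of all genes tested. Its genotype effect was lower at 360 h than at 260 h by a log2 difference of -2.39 ± 0.38 (edgeR adjusted p = 0.00204), and this was called in all 20 alternatives. Atrip had a difference of 1.25 ± 0.42 (edgeR adjusted p = 0.0986), Mdc1 one of 0.91 ± 0.31 (0.100) and Rad9a one of -3.33 ± 1.13 (0.101). Without WT 260 h library 1 that of Rad9a was called (-4.64, adjusted p = 0.0216), as it was without pre-meiotic cells (-5.54, adjusted p = 0.0240) and with DESeq2 (-3.40, adjusted p = 0.0270). That of Mdc1 was called with cells thinned to equal depth (1.01, adjusted p = 0.0438) and with DESeq2 (0.85, adjusted p = 0.0266). For the other 7 genes a difference between the genotype effects at 360 h and 260 h was not called in any alternative.

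In the authors' clusters the levels are a description, because the clusters were made from these cells. They are CPM without library scaling, so they are not on the scale of the library levels above. Rnf168 had a median of 112 CPM over the 3 libraries of cluster 5 (WT, 360 h), against 30.6 CPM in cluster 4 (KO, 360 h), 31.8 CPM in cluster 3, 26.4 CPM in cluster 2 and 55.1 CPM in the pre-meiotic cluster. Cluster 4 thus lay with the early pachytene clusters for this gene. For Topbp1 cluster 4, at 181 CPM, lay above cluster 5 (62.1 CPM) and below clusters 2 and 3 (255 and 354 CPM). The pre-meiotic cluster had 173 CPM. Atr and Mdc1 were lowest in the pre-meiotic cluster, at 261 and 147 CPM, and highest in cluster 2, at 724 and 459.5 CPM. Atr had 623 to 717 CPM in cluster 4 and 405 to 547 CPM in cluster 5. These unscaled levels did not overlap, whereas the scaled library levels of Atr at 360 h did. Atrip was lowest in cluster 5, at 25.9 CPM, and highest in cluster 4, at 127 CPM. Within cluster 3 the genotypes can be set side by side at 260 h, although WT had only library 3 there: Rnf168 had 33.0, 35.2 and 30.5 CPM in the KO libraries and 27.9 CPM in WT, and Topbp1 had 316, 424 and 345 CPM in the KO libraries and 364 CPM in WT. Atrip there had 95.9, 142 and 63.6 CPM in the KO libraries and 57.5 CPM in WT, and Atr 467, 554 and 494 CPM in the KO libraries and 641 CPM in WT. X-linked genes, the targets of sex body silencing, took 0.195%, 0.333% and 0.365% of UMIs in cluster 4 of the KO libraries at 360 h, against 0.179%, 0.135% and 0.208% in cluster 5 of the WT libraries. The KO and WT shares overlapped for 1 KO library. Whether they follow the levels of the 10 genes was not tested.

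**Figure D4:**
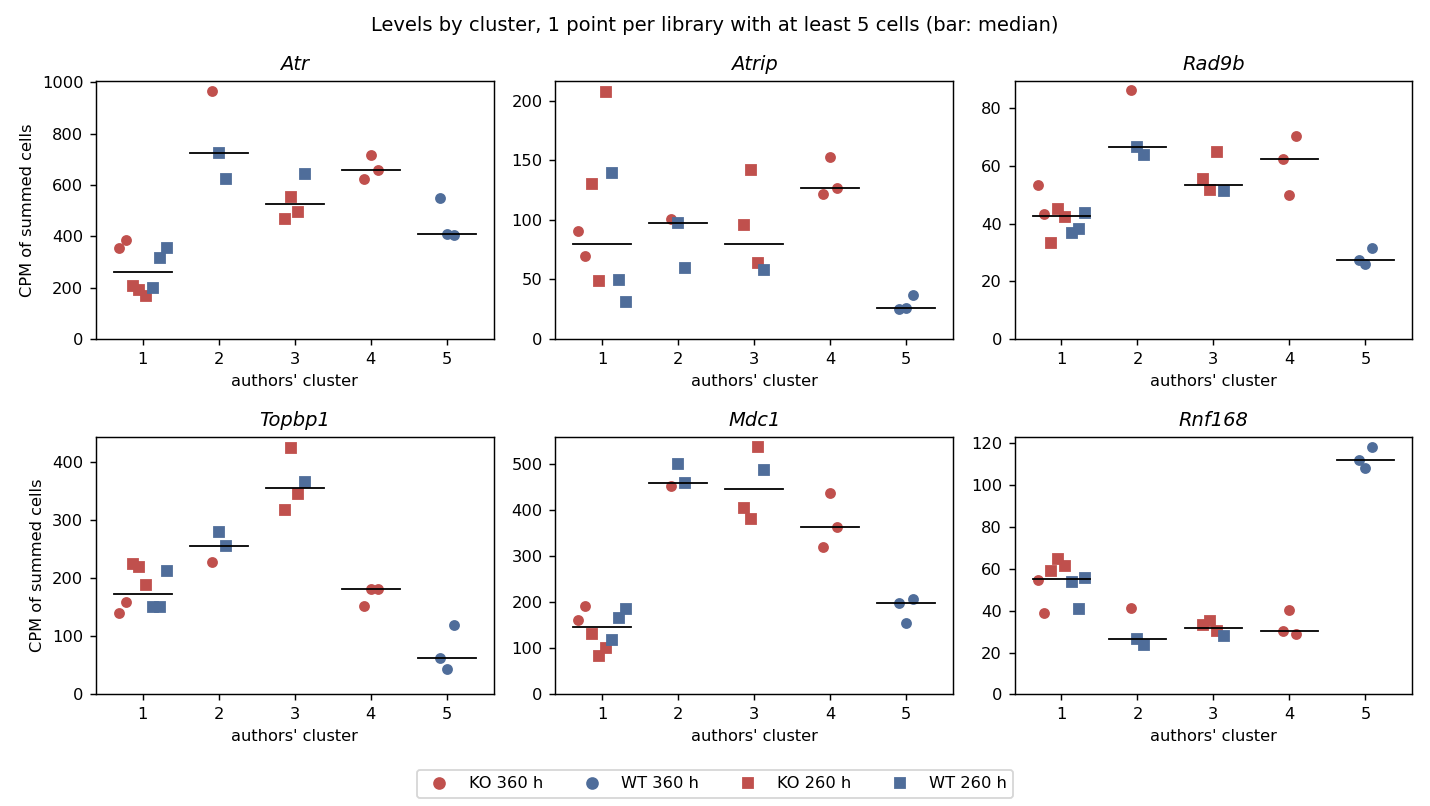
Levels of 6 genes in CPM without library scaling (y axes from 0) by the authors' cluster. There is 1 point per library that had at least 5 cells there and a bar at the median of the points. Rnf168 is at 108 to 118 CPM in cluster 5 and at most 64.9 CPM in all other clusters, and Atrip is at 25.4 to 37.0 CPM in cluster 5.

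The partners of these genes were given by 3 lists with 42 genes in all, all tested. At 360 h 10 of the 42 were higher in KO and 1 lower, beside 8.93% and 13.5% of all genes tested, and the median log2 fold change was 0.59 for 16 ATR pathway partners, 0.19 for 18 genes of the chromatin break response and 1.16 for 8 sex chromosome silencing partners. Among ATR partners 5 rose and 1 fell. Rpa3, the smallest RPA subunit, averaged 114 ± 11 CPM in KO and 19.1 ± 9.97 CPM in WT (log2 fold change 2.57 ± 0.34, edgeR adjusted p = 8.70e-05). Tipin, a fork protection factor, averaged 123 ± 38.7 and 18.3 ± 11.2 CPM in KO and WT (2.74 ± 0.50, adjusted p = 0.00128), Rfc5, a clamp loader subunit, 50.7 ± 12.2 and 9.08 ± 5.59 CPM (2.47 ± 0.42, adjusted p = 0.000685), and Clspn, the adaptor for CHK1, 51.5 ± 21.8 and 17.8 ± 3.17 CPM (1.53 ± 0.39, adjusted p = 0.0103). The call of Clspn was lost without KO 360 h library 2 (1.19, adjusted p = 0.0675), and those of Rpa3, Tipin and Rfc5 held in all 20 alternatives. The remaining 2 calls, named after their values were seen, were Hus1b, a paralog of Hus1, which was higher (1.15, adjusted p = 0.0303), and Rpa1, the large RPA subunit, which was lower (-1.02, adjusted p = 0.0211). The call of Hus1b was lost without any WT 360 h library or KO 360 h library 2 or 3 (adjusted p of 0.0741 to 0.192) and under spike-in scaling (0.67, adjusted p = 0.405) or no filter on low counts (0.142), and that of Rpa1 without WT 360 h library 1 or 2 or KO 360 h library 3 (0.0580 to 0.125).

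Among the chromatin break response genes 3 rose and 0 fell at 360 h. Uimc1, which encodes the RAP80 reader of the ubiquitin chains made downstream of RNF8, had 443, 386 and 358 CPM in the KO libraries, against 36.2, 40.2 and 61.1 CPM in the WT libraries. Its log2 fold change of 3.11 ± 0.29 (edgeR adjusted p = 4.04e-06) went the other way from that of Rnf168, and was called in all 20 alternatives. Atm, the sister kinase of ATR, had 67.8, 127 and 90.5 CPM in the KO libraries, against 14.8, 12.4 and 16.2 CPM in the WT libraries (2.71 ± 0.45, edgeR adjusted p = 0.000489). Abraxas1, a scaffold that binds RAP80, averaged 90.4 ± 1.74 CPM in KO and 31.9 ± 9.49 CPM in WT (1.50 ± 0.30, adjusted p = 0.00226). Among silencing partners 2 rose and 0 fell: Hormad1, at 865 ± 75.1 CPM in KO and 379 ± 77.2 CPM in WT (1.19 ± 0.31, adjusted p = 0.0108), and Hormad2, at 66.9 ± 19.9 CPM in KO and 25.1 ± 6.28 CPM in WT (1.41 ± 0.32, adjusted p = 0.00529). Both encode proteins of unpaired chromosome axes. Hormad1 is also among the early prophase markers, and its call was lost without WT 360 h library 1 (1.01, adjusted p = 0.0707). Under spike-in scaling Clspn, Abraxas1, Hormad1 and Hormad2 were not called (adjusted p of 0.189 to 0.332), with positive log2 fold changes of 0.65 to 0.99.

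At 260 h Rfc5 alone of the 42 was called, as higher in KO (1.70 ± 0.42, edgeR adjusted p = 0.0477), beside 1.89% of all genes. That call was lost without any 1 of the WT or KO 260 h libraries, WT 360 h library 1 or KO 360 h library 2 or 3 (adjusted p of 0.0556 to 0.284). Between the times 4 of the 42 were higher and 17 lower at 360 h in WT, beside 20.9% and 18.9% of all genes tested, and 2 were higher and 9 lower in KO, beside 13.3% and 10.2%. Those that fell in WT included Uimc1 (-2.39 ± 0.28, edgeR adjusted p = 2.06e-05), Hormad2 (-2.64 ± 0.34, adjusted p = 3.75e-05), Clspn (-2.44 ± 0.40, adjusted p = 0.000274), Rpa2 (-1.83 ± 0.31, adjusted p = 0.000303) and the kinase gene Chek2 (-2.38 ± 0.47, adjusted p = 0.00102). In KO, H2afx, which encodes H2AX itself, had 47.9, 46.6 and 37.8 CPM at 360 h, against 523, 522 and 291 CPM at 260 h. Its log2 fold change of -3.34 ± 0.63 (edgeR adjusted p = 0.00238) was called in all 20 alternatives. The WT libraries had 83.8, 75.5 and 198 CPM of H2afx at 360 h, against 73.8, 261 and 607 CPM at 260 h, which overlapped. At 360 h every KO library lay below every WT library for H2afx, a difference that was not called. Wee1, a kinase that restrains CDK1, also fell in KO (-2.21 ± 0.41, adjusted p = 0.00138), and the clamp loader gene Rfc2 rose (1.25 ± 0.27, adjusted p = 0.00363). Herc2, a ligase that works with RNF8, fell in KO (-1.23 ± 0.31, adjusted p = 0.0102), a call lost without KO 260 h library 2 or KO 360 h library 3 (0.0794 and 0.0687). Brca1 fell in WT (-2.12 ± 0.45, adjusted p = 0.00194) and in KO (-1.28 ± 0.44, adjusted p = 0.0464), where the call was lost without any 1 of 8 libraries (0.0602 to 0.250) and kept without WT 260 h library 1, WT 360 h library 2 or 3 or KO 360 h library 2. The other genes that rose, named after their values were seen, were Hus1b in KO (1.18, adjusted p = 0.0278; lost without KO 260 h library 3 or KO 360 h library 2 or 3, at 0.0531 to 0.130) and Nbn, Rpa1, Rfc2 and Rif1 in WT (1.43, 1.42, 0.98 and 0.55, adjusted p of 0.00169 to 0.0464). The call of Rif1 in WT was lost without WT 260 h library 1, 2 or 3, KO 260 h library 1 or 2, WT 360 h library 1 or 3 or KO 360 h library 3 (adjusted p of 0.0529 to 0.200). Spike-in scaling also ended the calls of Herc2, Brca1 and Hus1b in KO and of Brca1 and Rif1 in WT (adjusted p of 0.0567 to 0.251). Without pre-meiotic cells, Herc2 (-0.78, edgeR adjusted p = 0.0847), Brca1 (-0.98, 0.108) and Hus1b (0.79, 0.103) were not called in KO. Rif1 was then not called in WT (0.36, 0.181).

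The genes whose profile over the 12 libraries was nearest to each called gene were found by the root mean square difference of centred log2 CPM among 6919 genes of at least 20 CPM on average. Nearest to Rnf168 was Atp9b (0.27), with group means of 34.3 and 123 CPM in KO and WT at 360 h and 38.9 and 33.5 CPM in KO and WT at 260 h, followed by Ckap4 (0.30). Nearest to Atrip were Eef1akmt2 (0.23) and Pole (0.26), to Mdc1 Ncapd2 (0.13) and Senp8 (0.15), and to Topbp1 Snrnp70 (0.15) and Ythdc2 (0.17). Nearest to Atr were Odf2l (0.13) and Emc2 (0.15) and to Rad9b Gpatch8 (0.13) and Mbd1 (0.17). The nearest to Rad9a were Cdc42se1 (0.52) and Slc29a1 (0.55). Rad9a, at 0.378 to 8.87 CPM per library, lay below the level asked of the compared genes. Its few UMIs make its profile noisy, so these larger distances do not show a distinct pattern.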

How the data were processed

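Libraries were made from single germ cells with a modified Smart-seq2 protocol with 3′ capture, per the labels' protocols. The deposited values are raw UMI counts per gene and barcode. The build was mm10 and the tools featureCounts 1.6.4, STAR 2.5.3a and UMI-tools 1.0.0 (in no stated order), per the submitters' processing notes. Their settings and the use of strand are not stated there. Cells and clusters are those of the authors' deposited cell table, whose filters and treatment of doublets are not given, and no doublet caller was run.

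Counts of kept cells were summed per library, since cells are not replicates, leaving out 92 ERCC spike-in sequences. Genes were kept by filterByExpr (20279 of 55450), scaled by TMM and tested with edgeR 4.0.16 (R 4.3.3, robust quasi-likelihood F-test, two-sided, 12 libraries, 1 coefficient per group, common coefficient of variation 0.4855). Benjamini-Hochberg adjustment ran over all genes tested. Marker and cluster CPM were not scaled by TMM. Intervals are 1.96 SE. Within groups, libraries differed by a chi-square per degree of freedom of at least 11.0, so none was a duplicate. Steps were tested on simulated data. Alternatives were a replicate block, spike-in scaling, no low-count filter, each library left out, the 2 groups alone, cells thinned to 40000 UMIs, no pre-meiotic cells, all barcodes of at least 500 genes and DESeq2 1.42.0, and, added after seeing the data, WT library 3 alone at 260 h.

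Named list genes were those called with the smallest p, up to 4 per list at 360 h and 2 in each other comparison. The 10 genes and the lists were chosen with earlier results of these data known. Promoters came from the RefSeq table, which has none for Rad9a.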

Additional observations from a re-analysis of the deposited data

Results flagged for a closer look

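The following 5 genes are the named ones of the lists and members whose genotype effect differed between 360 h and 260 h. The test was that of the difference itself (edgeR adjusted p under 0.05). Of the 42 list genes, 4 were called with a positive and 1 with a negative log2 difference, beside 5.08% of all genes tested. The 1 with a negative difference, of the chromatin break response list, is not named, since at most 2 genes per list were. For Rnf168 the log2 difference was -2.39 ± 0.38 (adjusted p = 0.00204), with 33.3, 40.8 and 29.1 CPM in KO and 134, 151 and 142 CPM in WT libraries at 360 h, and overlapping libraries at 260 h. For Uimc1 it was 2.76 ± 0.38 (adjusted p = 0.000888), lost only under spike-in scaling (2.48, adjusted p = 0.0528).

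For Tipin it was 2.65 ± 0.68 (adjusted p = 0.0357). That call was lost without WT 260 h library 1 (2.08), KO 260 h library 1 or 3, WT 360 h library 1 or 2, or KO 360 h library 2 or 3 (adjusted p of 0.0692 to 0.104). For Atm it was 2.27 ± 0.60 (adjusted p = 0.0402). That call was lost without WT 260 h library 1 (1.51), KO 260 h library 1 or 3, any WT 360 h library, or KO 360 h library 2 or 3 (adjusted p of 0.0546 to 0.135). WT 260 h library 1 had the highest Atm level of the WT 260 h libraries, 122 CPM, against 34.7 and 36.0 CPM in the other 2. For Hormad2 it was 1.89 ± 0.45 (adjusted p = 0.0251). That call was lost without WT 260 h library 3, KO 260 h library 2 or 3, WT 360 h library 1 or 2, or KO 360 h library 2 or 3 (adjusted p of 0.0511 to 0.0942). With 3 libraries in each group, single libraries were not tested as outliers.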

How the results depend on the processing

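No called log2 fold change of the 43 examined changed direction in any alternative, and 18 of the 43 stayed called in all of them. The 5 members called between the genotypes at 360 h became 3 with the replicate block, 2 with spike-in scaling and 3 with no filter on low counts, and 2 to 5 with 1 library left out. The calls over all genes moved too. At 360 h, 1811 were called higher and 2743 lower in KO of 20279 genes tested. These were 1579 and 2447 with the replicate block, 637 and 3091 with spike-in scaling, and 1669 and 3114 of 46964 with no filter. With 1 library left out, calls ran from 1065 to 1961 higher and from 1507 to 2931 lower. The 1 called between the times in KO became 0 with spike-in scaling, 0 with no filter and 2 in a fit of the groups compared alone, and 0 to 1 with 1 library left out. Of all genes, 2693 were called higher and 2066 lower at 360 h in KO. These were 2084 and 483 with spike-in scaling, 2609 and 1515 of 46964 with no filter, and 3103 and 2743 of 17260 with the groups compared alone. The 4 called between the times in WT became 2 with the replicate block and 1 with spike-in scaling. They became 2 with no filter, with the groups compared alone and with every barcode of 500 or more genes kept, and 2 to 4 with 1 library left out. Of all genes, 4244 were called higher and 3838 lower at 360 h in WT. These were 3999 and 3317 with the block, 4432 and 1683 with spike-in scaling, and 4594 and 3247 of 46964 with no filter. They were 3857 and 3446 of 18159 with the groups compared alone, and 4292 and 3897 of 21091 with every such barcode kept. The 1 called for the difference between the times became 2 with thinned cells, 2 without pre-meiotic cells and 3 with DESeq2, and 1 to 2 with 1 library left out. Of all genes, 467 were called higher and 563 lower for that difference. These were 569 and 557 of 15146 with thinned cells, 515 and 480 of 18901 without pre-meiotic cells, and 917 and 1287 with DESeq2. At 260 h the count was 0 in every alternative. The cause of these shifts was not tested. Deviations of libraries with the same replicate number had correlations of -0.20 to 0.17, within the -0.25 to 0.23 of libraries with different numbers. The replicate numbers have no stated meaning, and these correlations cannot tell whether they pair the libraries. With the block, Rad9b and Mdc1 were not called at 360 h (adjusted p = 0.0549 and 0.0662), nor Atrip and Mdc1 between the times in WT (0.0610 and 0.0520). Rad9a, at 3 to 13 UMIs per KO library at 360 h, is limited by depth.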
